A study of Saccharomyces cerevisiae with 6 samples.

Results

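The 30 genes described here encode the enzymes and partner proteins that build the glycosylphosphatidylinositol (GPI) anchor in the endoplasmic reticulum (ER) of budding yeast, join it to proteins and then remodel it. They were taken by name and matched through the array's probe annotation to 30 probe sets, 1 per gene, among 5449 measured genes. Total RNA of 3 wild-type and 3 pmr1 deletion samples of Saccharomyces cerevisiae was hybridised to 6 Affymetrix arrays, and the labels give 1 comparison, deletion against wild type. The wild type is a MAT a laboratory strain with the deletions ura3Δ0, leu2Δ0, his3Δ0 and met15Δ0, named BY4147 in some labels and BY4741 in others. The deletion strain, NGY051, is the same background with PMR1 replaced by a kan marker. It is a single strain, so a difference that belongs to that isolate and one that belongs to the loss of PMR1 cannot be told apart. All samples came from exponential growth in rich medium with 5 mM CaCl2 added, and no sample of the series lacks the added calcium. Whether replicates were separate cultures is not stated, and p-values here then reflect only sample-to-sample spread that could be technical.

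A GPI anchor is a glycolipid that holds a protein in the outer leaflet of the membrane. Its synthesis starts on the cytosolic face of the ER with N-acetylglucosamine (GlcNAc) on phosphatidylinositol, goes on in the lumen with mannoses and ethanolamine phosphates, and ends when a transamidase swaps the C-terminal signal of a protein for the anchor. In yeast the anchor is then trimmed and its lipid exchanged before the protein leaves the ER, and many anchored proteins end up linked to the glucan of the cell wall. Pmr1, the product of the deleted gene, is the Golgi pump for calcium and manganese, and Cdc1, a remodelling enzyme, is a manganese-dependent phosphodiesterase.

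Levels are the deposited log2 values, and differences are deletion minus wild type on the log2 scale. PMR1 itself had levels of 11.81, 11.79 and 11.84 on the wild-type arrays and 2.79, 3.45 and 3.16 on the deletion arrays. The latter lie below the array background, taken as the 95th percentile of the probe sets for the fission yeast S. pombe that share the array, which was 4.18 to 4.31. All 30 anchor genes were above that background on every array, with values from 7.92 to 12.66, the lowest of them 3.62 above the background of its array. Of 17 S. pombe probe sets that carry the same gene names, 16 were below background on every array. Array medians over the tested probe sets were 10.34 to 10.39.

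Differences at the anchor genes were small. By limma, with Benjamini-Hochberg adjustment over 5498 probe sets at 0.05, 2 of the 30 rose (PBN1 and GPI16), 4 fell (GPI15, GPI10, GPI11 and GPI8) and 24 did not pass. That is 20% of the genes, against 29.2% of all probe sets tested. Over all probe sets 17.5% were higher and 11.7% lower. The changes of the 6 genes that passed were between 0.14 and 0.24 in size, with adjusted p from 0.00858 to 0.0217. The 95% intervals of all 30 differences lay between -0.35 and 0.29, so at 3 arrays a group the intervals reached no further than a 1.28-fold fall or a 1.22-fold rise for any of these genes. The median difference was -0.02 over the 30 genes and 0.01 over all probe sets, and the median size was 0.07 against 0.10. The largest size among the anchor genes, 0.24, was exceeded by 972 probe sets, 17.7% of those tested. The values of the groups did not overlap for 10 of the 30 genes, against 46.7% of all probe sets, and 4 of these 10 did not pass the test.

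**Figure D1:**
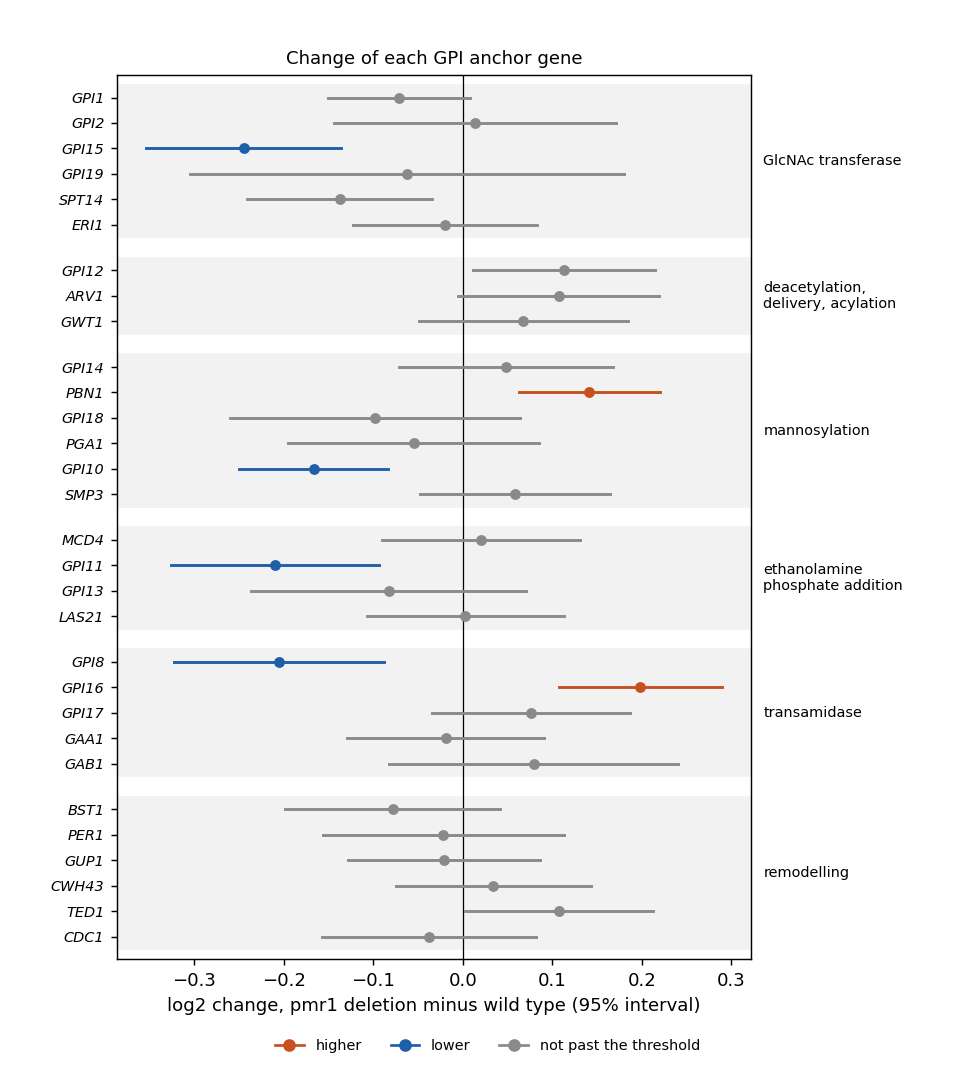
Difference between the pmr1 deletion and the wild type for each of 30 GPI anchor genes, on the log2 scale, with the 95% interval from limma (3 arrays a group), grouped by step of the pathway. Orange marks 2 genes past the adjusted threshold that were higher, blue 4 that were lower and grey 24 that did not pass; all intervals lie between -0.35 and 0.29.

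Several of the 6 calls ended when a single array was left out. Without wild-type replicate 1 or without deletion replicate 1, the counts were 1 higher and 1 lower, and GPI16 and GPI15 were the genes that passed. Without wild-type replicate 3 or deletion replicate 3 there were 2 lower. The share called over all probe sets, 29.2% with all arrays, moved as well. Without wild-type replicates 1, 2 and 3 in turn it was 20.1%, 30.4% and 20.7%. Without deletion replicates 1, 2 and 3 it was 17.7%, 23.6% and 20.3%. Deletion replicate 2 had the highest deletion value for 23 of the 30 genes, as it had for 58.4% of all probe sets tested, and the median of the 30 genes against their wild-type means was 0.06 on that array and -0.04 and -0.05 on the others. Without it 6 genes were lower, GPI18 (adjusted p = 0.0484) and GPI13 (adjusted p = 0.0253) among them. The plot of values by array shows this array to the right of its replicates at many genes.

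**Figure D2:**
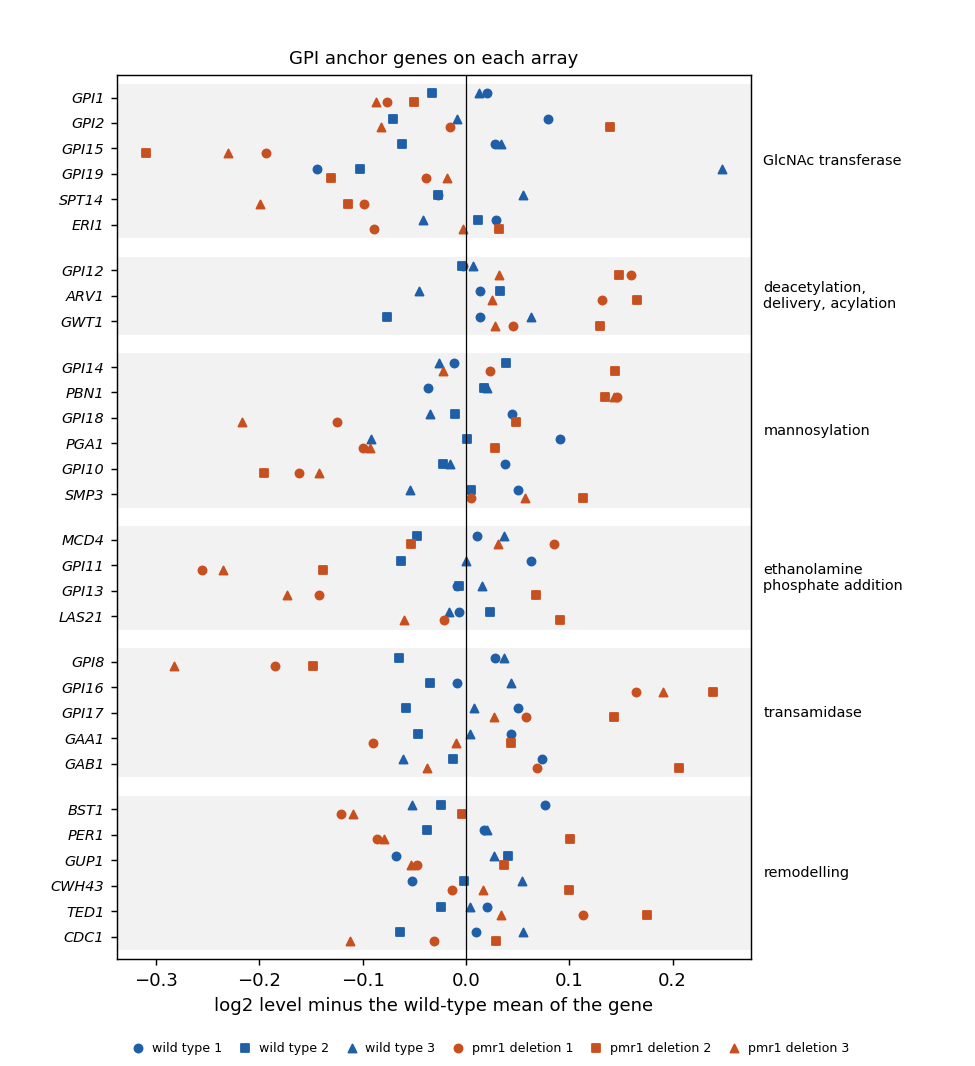
Log2 level of each GPI anchor gene on each of 6 arrays, minus the wild-type mean of that gene. Blue points are the 3 wild-type arrays and orange points the 3 deletion arrays, with a marker shape per replicate number; orange and blue separate for 10 of the 30 genes, and deletion replicate 2 (orange squares) is the highest deletion array for 23.

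The pathway opens with the GPI-GlcNAc transferase, a complex of the catalytic subunit SPT14 (also GPI3) with GPI1, GPI2, GPI15, GPI19 and ERI1. Of these 6 genes 1 fell and 0 rose, 16.7% called against 29.2% of all probe sets. Below 0 were 5 of the 6 differences. GPI15 (YNL038W), a subunit of the complex, had levels of 11.13, 11.04 and 11.13 in the wild type and 10.91, 10.79 and 10.87 in the deletion. All deletion values were below all wild-type values, and the difference was -0.24 (SE 0.046, adjusted p = 0.00858), a change in level of -15.6%. It passed under all 16 alternative settings, with differences from -0.28 to -0.21 and adjusted p of at most 0.0435.

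SPT14 (YPL175W), which encodes the subunit that transfers the sugar, had levels of 9.33, 9.33 and 9.41 in the wild type and 9.26, 9.24 and 9.16 in the deletion. The groups did not overlap, yet the difference of -0.14 (SE 0.044) missed the threshold (adjusted p = 0.0539). It passed when the arrays were scaled again, with adjusted p = 0.0284 by quantiles, 0.0411 by medians and 0.0234 by cyclic loess. These scalings also gave more lower calls over all 5498 probe sets, 789, 734 and 830 against 642 as reported. GPI1, another subunit, was also lower on every deletion array, at 10.37 to 10.41 against 10.42 to 10.48, and did not pass (difference -0.07, adjusted p = 0.155). For GPI2, GPI19 and ERI1 the groups overlapped. Their differences were 0.01, -0.06 and -0.02, and that of GPI19, the least precise of the 30, had a 95% interval from -0.31 to 0.18. ERI1 encodes the small subunit through which the GTPase Ras2 is known to restrain the enzyme.

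The next steps remove the acetyl group from the sugar (GPI12), bring the intermediate to the lumen, in which ARV1 has been implicated, and acylate the inositol ring (GWT1). The differences of these 3 genes were all above 0, at 0.11, 0.11 and 0.07. Of the 3, 0 passed, where 29.2% of all probe sets did. GPI12 (YMR281W) had levels of 10.71, 10.71 and 10.72 in the wild type and 10.87, 10.86 and 10.75 in the deletion. Deletion replicate 3 lay just above the wild-type values and the other deletion arrays well above them. Its adjusted p was 0.091, and 0.0385 without deletion replicate 3. ARV1 had an adjusted p = 0.134 and GWT1 an adjusted p = 0.341, and their groups overlapped.

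In mannosylation 1 of 6 genes rose and 1 fell, 33.3% called against 29.2% of all probe sets. The first mannose is added by GPI14 with its partner PBN1, the second by GPI18 with its partner PGA1, the third by GPI10 and the fourth, which yeast needs before a protein can be attached, by SMP3. PBN1 (YCL052C) had levels of 10.27, 10.33 and 10.33 in the wild type and 10.46, 10.45 and 10.45 in the deletion. The deletion arrays lay within a narrow band above every wild-type array, and the difference was 0.14 (SE 0.033, adjusted p = 0.0201). Adjusted p for PBN1 was 0.0766 without wild-type replicate 1, 0.0765 without deletion replicate 1 and 0.0629 without deletion replicate 3, which ended the call.

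GPI10 (YGL142C) had levels of 9.92, 9.86 and 9.87 in the wild type and 9.72, 9.69 and 9.74 in the deletion. Its groups were 0.12 apart at their nearest values, and it fell by 0.17 (SE 0.035, adjusted p = 0.0134). Without wild-type replicate 1 its adjusted p was 0.0536 and without deletion replicate 1 it was 0.0533. The catalytic partner of PBN1, GPI14, had a difference of 0.05 (95% interval -0.07 to 0.17), and GPI18, PGA1 and SMP3 had -0.10, -0.05 and 0.06, each with overlapping groups. In neither pair of enzyme and partner did both genes pass.

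Ethanolamine phosphate is attached to the mannoses by MCD4 (the first mannose), LAS21, also named GPI7 (the second), and GPI13 (the third), and GPI11 is a partner of LAS21 and GPI13. Here the partner fell and the transferases did not pass, 25% called against 29.2% of all probe sets. GPI11 (YDR302W) had levels of 11.42, 11.30 and 11.36 in the wild type and 11.11, 11.22 and 11.13 in the deletion. The groups were separated by 0.08 between wild-type replicate 2 and deletion replicate 2, and the difference was -0.21 (SE 0.049, adjusted p = 0.0195). Its call ended without wild-type replicates 1 (adjusted p = 0.0635) or 3 (0.0561) and without deletion replicates 1 (0.0736) or 3 (0.0641).

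MCD4 (YKL165C) had levels of 10.30, 10.24 and 10.33 in the wild type and 10.38, 10.24 and 10.32 in the deletion, a difference of 0.02 with a 95% interval from -0.09 to 0.13 (adjusted p = 0.78). LAS21 differed by 0.00 (95% interval -0.11 to 0.11, adjusted p = 0.972), the smallest difference of the 30. GPI13 had levels of 10.64, 10.85 and 10.61 in the deletion, where replicate 2 stood above all wild-type arrays and the others below them, against 10.78, 10.78 and 10.80 in the wild type. Its difference was -0.08 (adjusted p = 0.376), and -0.16 without deletion replicate 2.

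The transamidase, which attaches the finished anchor, held 1 rise and 1 fall among its 5 genes, 40% called against 29.2% of all probe sets. GPI8 (YDR331W) encodes the protease-like catalytic subunit and GPI16 (YHR188C) the subunit that is disulfide-linked to it. GPI8 had levels of 11.06, 10.97 and 11.07 in the wild type and 10.85, 10.89 and 10.75 in the deletion. It was lower on every deletion array, with a difference of -0.21 (SE 0.049, adjusted p = 0.0217). The call ended without wild-type replicates 1 (adjusted p = 0.0712) or 3 (0.0702) and without deletion replicates 1 (0.0599) or 3 (0.0619).

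GPI16 had levels of 11.56, 11.53 and 11.61 in the wild type and 11.73, 11.81 and 11.76 in the deletion. It was higher on every deletion array, with a difference of 0.20 (SE 0.039, adjusted p = 0.00979), a level 14.7% higher, and it passed without any 1 of the 6 arrays (adjusted p of at most 0.0377). The linked subunits GPI8 and GPI16 thus passed in opposite directions. The other subunits, GPI17, GAA1 and GAB1, differed by 0.08, -0.02 and 0.08, with overlapping groups and adjusted p of 0.265, 0.799 and 0.419.

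Remodelling had no call, 0 of 6, where 29.2% of all probe sets were called. BST1 removes the acyl chain from inositol (difference -0.08), PER1 removes an unsaturated fatty acid from the lipid (-0.02), GUP1 adds a very long saturated one (-0.02), and CWH43 exchanges the lipid for ceramide (0.03). Adjusted p for these genes was 0.291, 0.811, 0.766 and 0.614. The other two genes of the group encode related phosphodiesterases that take off side ethanolamine phosphates, TED1 from the second mannose and CDC1 from the first.

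TED1 (YIL039W) had levels of 12.51, 12.46 and 12.49 in the wild type and 12.60, 12.66 and 12.52 in the deletion. The lowest deletion value was 0.01 above the highest wild-type value, and the difference of 0.11 (SE 0.044) did not pass (adjusted p = 0.112). CDC1 (YDR182W), the gene of the manganese-dependent enzyme, had levels of 11.62, 11.55 and 11.67 in the wild type and 11.58, 11.64 and 11.50 in the deletion. The groups overlapped, and its difference of -0.04 had a 95% interval from -0.16 to 0.08 (adjusted p = 0.611).

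**Figure D3:**
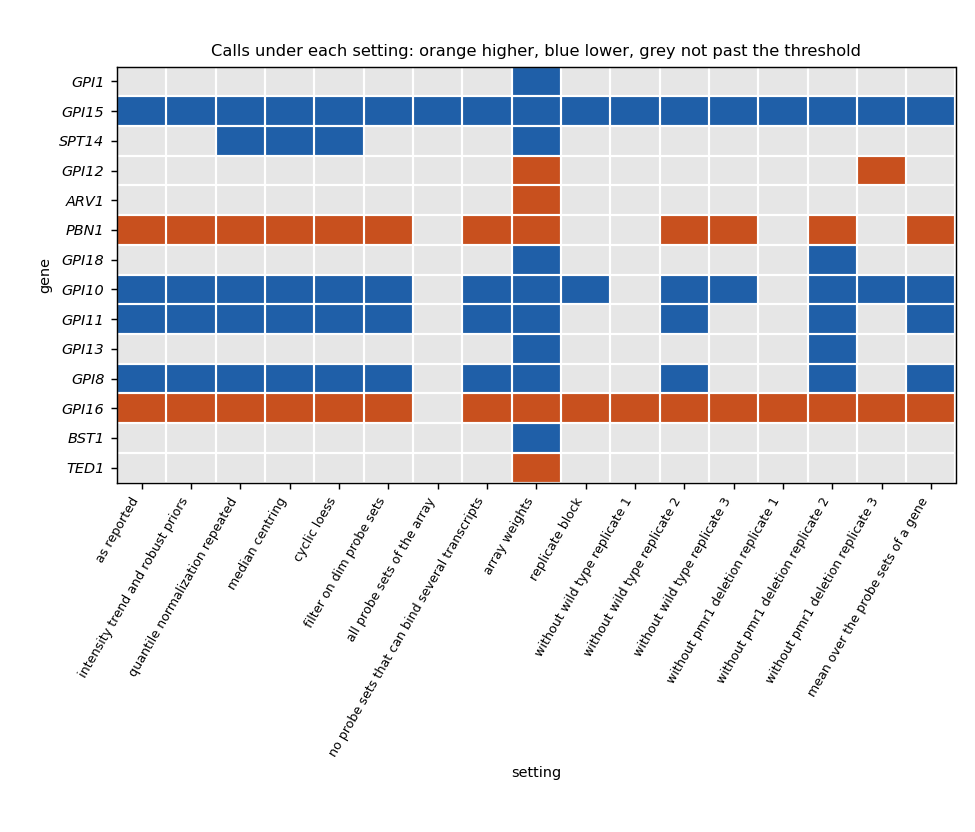
Calls of the 14 GPI anchor genes that passed the threshold under at least 1 of 17 settings (the reported fit and 16 alternatives). Orange marks higher, blue lower and grey not past the threshold; GPI15 passed under all 17, GPI16 under all but the fit with all probe sets of the array, and 8 genes passed only under some alternatives, with array weights among them for each of the 8.

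Genes that feed the pathway were looked at next. Of 15 genes that supply the sugar nucleotides, dolichol phosphate mannose and phospholipids from which the anchor is made, 4 rose and 1 fell, with a median difference of 0.03. That is 33.3% called, near the 29.2% of all probe sets. PCM1, the phosphoacetylglucosamine mutase that makes the GlcNAc phosphate used for UDP-GlcNAc, had levels of 11.73, 11.78 and 11.77 in the wild type and 12.13, 12.17 and 12.16 in the deletion. The groups lay far apart relative to their spread, and PCM1 rose by 0.39 (SE 0.033, adjusted p = 0.000324). GFA1, the first enzyme of the same route, had levels of 11.00, 11.04 and 11.03 in the wild type and 11.29, 11.20 and 11.27 in the deletion and rose by 0.24 (SE 0.038, adjusted p = 0.00461). UDP-GlcNAc also serves chitin and N-glycan synthesis.

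QRI1, the pyrophosphorylase that completes UDP-GlcNAc, rose by 0.18 (adjusted p = 0.0261), and GNA1, the acetyltransferase between GFA1 and PCM1, had a difference of -0.02 (adjusted p = 0.755). DPM1, the dolichol phosphate mannose synthase whose product is the mannose donor, rose by 0.15 (adjusted p = 0.014). RER2, which makes dolichol chains, fell by 0.16 (adjusted p = 0.0355). PCM1 and GFA1 passed without any 1 array, whereas DPM1 did not pass without wild-type replicate 1 or deletion replicate 1 (0.0585 and 0.0523). QRI1 passed in only 1 of the 6 fits that left out an array, the one without wild-type replicate 3, and RER2 in only the one without deletion replicate 2.

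Of 15 genes for the exit of anchored proteins from the ER (the p24 cargo receptors and the COPII coat), 4 rose and 0 fell, and the median difference was 0.08. The share called, 26.7%, was below the 29.2% of all probe sets called in either direction. All of these calls were rises, and 17.5% of all probe sets were higher. Of the 15 differences 13 were above 0, against 2923 of 5498 over all probe sets. Some of these 13 were smaller than their SE, and the count has no test. SFB2, a minor form of the coat's cargo adaptor SEC24, had levels of 10.10, 10.16 and 10.04 in the wild type and 10.34, 10.34 and 10.33 in the deletion, and rose by 0.23 (SE 0.039, adjusted p = 0.00555). SEC31, SEC24 and SEC23 of the coat rose by 0.19, 0.16 and 0.15 (adjusted p = 0.0351, 0.0168 and 0.0414). SFB2 was the only one of these 4 to pass without wild-type replicate 1, wild-type replicate 3, deletion replicate 1 or deletion replicate 3, where the count was 1, and SEC23 did not pass under any of 3 other scalings of the arrays (adjusted p from 0.0501 to 0.0829). The p24 genes EMP24 and ERV25, which sort anchored cargo, had differences of 0.11 (adjusted p = 0.155) and 0.16 (adjusted p = 0.0771).

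Of 7 genes of ceramide supply, which provides the lipid that CWH43 inserts, 3 fell and 0 rose (median difference -0.05), 42.9% called against 29.2% of all probe sets. With array weights 2 of the 7 were higher, where 1434 of all 5498 probe sets were. Without wild-type replicate 2 it was 1 of the 7, where 1041 of 5498 were. LAC1, a ceramide synthase subunit, had levels of 12.38, 12.45 and 12.41 in the wild type and 12.15, 12.25 and 12.17 in the deletion, and fell by 0.22 (SE 0.04, adjusted p = 0.00705). SCS7, the hydroxylase of the very long fatty acid, fell by 0.23 (adjusted p = 0.011). YPC1, a ceramidase, which breaks ceramide down, fell by 0.37 (adjusted p = 0.0263), so the 3 falls do not all concern synthesis. The call of YPC1 ended without wild-type replicates 1 or 3 or deletion replicate 1 (adjusted p from 0.0546 to 0.0807). LAG1, the paralog of LAC1, had a difference of -0.05 (adjusted p = 0.491). LIP1 of the same list was higher on every deletion array and did not pass (difference 0.08, adjusted p = 0.11).

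Differences at the genes of the proteins that receive the anchor ran over a wider range than those at the anchor machinery. Of 51 measured genes for GPI-anchored proteins of the plasma membrane and cell wall, 14 rose and 16 fell, 58.8% against 29.2% of all probe sets, and the differences ran from -2.70 to 1.24. The median was 0.04 and the median size 0.25, against 0.07 for the 30 anchor genes. Of the 51 genes 26 had a difference larger in size than that of any anchor gene, and 7 differed at least 2-fold. Over all 5498 probe sets these counts were 972 (17.7%) and 64. Earlier results of these data were known when this list was drawn up, so its wide range is a description.

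FIT2, FIT3 and FIT1, the cell wall mannoproteins that hold siderophore iron, fell with differences of -2.70, -2.68 and -1.62, and YPS3, an anchored aspartic protease, rose by 1.24 (adjusted p from 0.000149 to 0.00406). For these FIT genes wild-type replicate 2 stood highest, at 13.34, 13.84 and 10.19. The other wild-type arrays were at most 12.68, 13.15 and 9.27. Across the 16 alternatives their differences ran from -2.81 to -2.47, from -2.80 to -2.45 and from -1.80 to -1.30. Without the FIT genes the list still held 14 higher and 13 lower of 48. Among the 13 lower were the related wall protein genes TIR3, TIP1, TIR1, TIR4 and TIR2. Their differences were -1.21, -1.05, -0.98, -0.87 and -0.34, and wild-type replicate 2 was the highest wild-type array for each. The anchored phospholipases, chosen here after their values were seen, were split, with PLB1 and PLB3 higher by 0.58 and 0.66 and PLB2 lower by 1.07 (adjusted p of at most 0.000417). GAS1, an abundant anchored glucan-modifying enzyme and likewise chosen after its value was seen, had a difference of 0.09 (SE 0.041, adjusted p = 0.144), and it passed only with an intensity trend and robust priors (adjusted p = 0.0247).

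**Figure D4:**
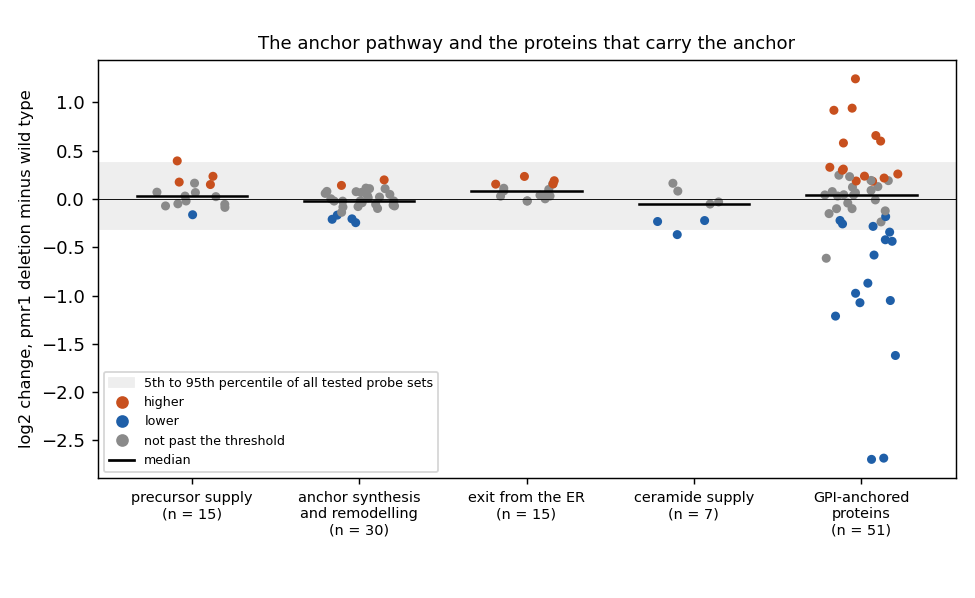
Difference between the pmr1 deletion and the wild type on the log2 scale for the genes of the anchor pathway (30) and of 4 related lists, 1 point per gene, with the median of each list as a bar and the 5th to 95th percentile of all tested probe sets, -0.32 to 0.37, in grey. The 30 anchor genes stay within -0.24 to 0.20, whereas the 51 genes for anchored proteins run from -2.70 to 1.24.

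Markers of cell type were read beside these lists, because some anchored proteins are specific to a mating type. Of 7 a-cell genes, 5 fell (MFA1, MFA2, STE2, STE6 and AGA2, with differences from -0.66 to -0.41), ASG7 rose by 0.22, and BAR1 did not pass (0.08). Their summed level was 15.13 to 15.18 in the wild type and 14.67 to 14.74 in the deletion on the log2 scale. Of 4 alpha-cell genes, STE3 rose by 0.55, SAG1, whose product is itself GPI-anchored, by 0.19 and MF(ALPHA)2 by 0.12, while MF(ALPHA)1, which encodes the main pheromone of alpha cells, was at background on all arrays. Their summed level was 9.46 to 9.59 in the wild type and 9.73 to 9.84 in the deletion. The calls of SAG1, ASG7 and MF(ALPHA)2 each ended without at least 4 of the 6 arrays in turn. Of 6 sporulation genes, IME1 fell by 0.29, and SMK1, NDT80, SPO11, IME2 and SPS1 did not pass (-0.21 to 0.18). Outside these 6, SPS22 of the anchored list, also a sporulation gene, rose by 0.94 (adjusted p = 0.00032). Its mean level went from 4.67 to 5.61, not far above background, and SPS2 of the same list was at background on all arrays. Called were 85.7% of the a-cell, 75% of the alpha-cell and 16.7% of the 6 sporulation genes, against 29.2% of all probe sets. The part of these shifts in the differences of the anchor genes and the anchored proteins was not tested.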

How the data were processed

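The authors deposited log2 levels of 10928 probe sets on 6 arrays, made from 100 ng of total RNA labelled with biotin, per the labels' protocols. The submitters' processing notes name GCOS, RMA and limma without versions, and no genome build is named there. RMA gives the arrays a common distribution and compresses differences of dim genes. Probe sets were named through the platform annotation and the R64 gene table, which left 5498 for S. cerevisiae (5449 genes). The groups were compared by lmFit and eBayes of limma 3.58.1 in R 4.3.3, two-sided, adjusted by Benjamini-Hochberg over these 5498 at 0.05, and the procedure was checked on simulated data. Intervals are 95% and not adjusted. A gene with several probe sets was read from the one with the highest mean. Arrays give no depth, so their number limits the precision; an exact permutation of 3 against 3 cannot go below p = 0.1.

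The genes and related lists were chosen with earlier results of these data known. Named were all 30 anchor genes, PMR1, up to 4 genes of each related list with the largest change among those past the threshold, and the cell type markers. DPM1, GNA1, LAG1, LIP1, EMP24, ERV25, GAS1, TIP1, SPS2, SPS22 and the PLB and TIR genes are outside this rule and were picked with their values known. Same-numbered arrays of the groups did not deviate together (r from -0.14 to 0.08 across probe sets), so the numbers were not taken as pairs. As alternatives the fit was run with robust priors on an intensity trend, under 3 other scalings, without dim probe sets, with every probe set of the array, without those whose suffix marks shared transcripts, with weights for the arrays, with the replicate number as a block, without each array in turn, and on gene means over probe sets. FLO5 and NCW2 had no named probe set. Plots used matplotlib 3.10.9 (Python 3.11.15).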

Additional observations from a re-analysis of the deposited data

How the results depend on the processing

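Of the 6 anchor genes past the threshold, GPI15 kept its call under all 16 alternatives, and 4 lost it without at least 1 array. Of the 24 others, 8 passed under at least 1 alternative, and no call changed direction. The counts of members higher and lower in the pmr1 deletion were 2 and 4 as reported, 0 and 1 when the fit held every probe set of the array (which changes both the prior variance and the adjustment), 5 and 9 with array weights, and 1 and 2 with the replicate block. Leaving out 1 array at a time gave 1 to 2 higher and 1 to 6 lower. The share called over all probe sets of the fit moved too, from 29.2% as reported. It was 8.0% of 10928 with every probe set of the array, 45.9% with array weights and 25.0% with the block. With single arrays left out it was 17.7% to 30.4%. The cause of these shifts was not tested. The median log2 change of the members, -0.02, turned to 0.013 without pmr1 deletion replicate 1 and to 0.0030 without replicate 3, and lay between -0.047 and 0.013 with single arrays left out. It has no test. The replicate numbers did not pair the arrays, and not every array deviated most like its own number. With the block 1375 probe sets passed against 1605. Under the alternatives the anchored proteins had 9 to 16 higher and 12 to 17 lower, and the exit genes 1 to 6 higher. The number of arrays limits the precision, with a median SE of 0.0467 for the 30 differences.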
